A study of Homo sapiens with 6 samples.

Results

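The AP-1 transcription factor genes were examined as single subunits in WM164 melanoma cells. The set held 10 genes out of the 60504 in the deposited table, found by gene symbol from a list written with earlier results of these data known. It comprised the JUN family (JUN, JUNB and JUND), the FOS family (FOS, FOSB, FOSL1 and FOSL2) and the related factors ATF3, BATF3 and MAFF. WM164 is a human melanoma line with a BRAFV600E genotype. Whether a transfected line was 1 clone or a pool was not given in the sources used here. One group of 3 RNA-seq libraries (EV) came from cells with an empty expression vector, and another of 3 (HDAC8) from cells with an HDAC8 expression vector. Per the methods of the study, cells were transfected with the plasmid and kept under hygromycin. Both groups thus share the parent line and the way of transfection and selection, but each vector went into its own cells. An effect of the vector and a difference between the derived lines cannot be told apart. Libraries are named by group and replicate number (EV 1, HDAC8 1 and so on). The labels call the replicates biological but do not say that they were separate cultures, so p-values measure the spread between these libraries.

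AP-1 is not one protein but a set of dimers. Its subunits carry a basic leucine zipper (bZIP), in which the zipper joins 2 proteins and the basic stretch reads the DNA site TGACTCA or its longer relative TGACGTCA. JUN proteins pair with each other and with FOS proteins, whereas FOS proteins need a JUN partner. FOS, FOSB and JUN are immediate-early genes, switched on by growth factor and stress kinases without new protein synthesis, and in melanoma JUN and FOSL1 are known as factors of dedifferentiated, invasive cell states. ATF3 is induced by stress and often acts as a repressor. BATF3 and MAFF lack a classical activation domain and act mainly through their partners.

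To show the control regions that the subunits do or do not share, promoter sequence was read from RefSeq (GRCh38.p14) and searched on both strands. A window from 250 bases before to 50 after a transcription start was found for 8 of the 10 genes (10 windows). FOSL1 and BATF3 had no entry. The stretches printed below run 5′ to 3′ on the strand of the gene. The longer ones cover bases -130 to -11 before the start, and JUN and FOSB, which rose, are shown beside JUNB, JUND and FOS, which did not pass the test. Capitals mark a partial CRE (the letters TGACGT on either strand), a JUN-type site (TGACATCA), a CRE (TGACGTCA) or a TATA box (TATAAA).

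JUN (chr1:58784058-58784177, minus strand): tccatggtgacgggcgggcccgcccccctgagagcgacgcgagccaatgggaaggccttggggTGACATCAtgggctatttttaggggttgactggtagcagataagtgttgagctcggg
JUNB (chr19:12791356-12791475, plus strand): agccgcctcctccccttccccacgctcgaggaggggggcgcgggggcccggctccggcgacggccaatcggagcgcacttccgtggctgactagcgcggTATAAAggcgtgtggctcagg
JUND (chr19:18281633-18281752, minus strand): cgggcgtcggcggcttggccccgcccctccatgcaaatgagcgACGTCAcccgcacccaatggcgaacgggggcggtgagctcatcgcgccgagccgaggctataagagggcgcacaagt
FOS (chr14:75278698-75278817, plus strand): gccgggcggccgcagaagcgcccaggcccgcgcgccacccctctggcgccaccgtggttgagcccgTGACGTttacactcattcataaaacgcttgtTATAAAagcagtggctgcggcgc
FOSB (chr19:45467866-45467985, plus strand): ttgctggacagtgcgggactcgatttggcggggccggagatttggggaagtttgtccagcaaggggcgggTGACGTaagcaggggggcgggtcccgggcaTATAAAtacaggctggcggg

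Short stretches around the full sites of ATF3, MAFF and JUND are given to compare the 8-letter sites themselves.

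ATF3 (chr1:212565273-212565302, plus strand): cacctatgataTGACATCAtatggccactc
MAFF (chr22:38201929-38201958, plus strand): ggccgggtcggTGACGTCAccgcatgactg
JUND (chr19:18281804-18281833, minus strand): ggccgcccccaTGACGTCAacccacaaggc

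JUN and ATF3 held the JUN-type site TGACATCA, at -67 in JUN and -123 in the most upstream window of ATF3. Of 35116 promoter windows, 2.61% held it. ATF3 had more than 1 window, and which of its starts these cells used was not measured. These same letters stood in a gene that rose and in one that fell. The CRE was found at -200 in JUND and at -54 in MAFF, and 1.85% of all windows held it. The partial CRE, which overlaps every CRE, was found in 5 members, namely FOS at -64, FOSB at -60, FOSL2 at -66, JUND and MAFF, against 7.98% of all windows. A TATA box stood at -33 in FOS, -30 in FOSB and -31 in JUNB, and at -230 in another window of ATF3, so in 4 of 8 members against 11.5% of all windows. The AP-1 site itself (TGACTCA or TGAGTCA) was found in FOSL2 alone among these members, 5 bases after the start, and in 4.95% of windows. The CArG box, the site that SRF reads, was in 0 of the 8 members' windows and in 1.29% of all windows. Sites more than 250 bases before a start were outside the search, so it cannot show that a member lacks a CArG box. A match is a run of letters and not a measured binding site.

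Depth was alike in the groups, with total counts from 34741083 to 42041462 per library. All 10 members were measured in every library and passed the filter of at least 10 counts in total. Their normalized counts, which are expected counts divided by a size factor per library, averaged from 68.2 for BATF3 to 4826 for FOS. Mitochondrially encoded transcripts took 9.66% to 12.8% of the counts in EV and 4.46% to 7.94% in HDAC8 libraries, with the lowest share in HDAC8 1. The HDAC8 transcript itself had 422.3 ± 50 normalized counts in EV and 468.0 ± 20.3 in HDAC8 libraries (SD, n = 3), with a DESeq2 log2 fold change of 0.15 (SE 0.28, adjusted p = 0.856). It thus does not check the labels, and "higher" means higher in the libraries labelled HDAC8. Melanocyte markers were present in all libraries (summed normalized counts of 8 markers from 244960 to 328761 in EV and from 137043 to 182218 in HDAC8). By the test described below, 5 of the 8 were called lower, beside 5.44% of all genes. Markers of other cell types summed to 2547 to 2982 against 1513 to 2423 for 8 fibroblast genes, 171 to 303 against 166 to 176 for 6 keratinocyte genes and 97.5 to 203 against 123 to 263 for 5 endothelial genes, with DCN and CDH5 at 0. Most of the fibroblast sum was LUM (means 2462 and 1629, not called). PDGFRA went the other way and was called higher (log2 fold change 1.16, DESeq2 adjusted p = 0.0377). The 6 immune genes summed to 2372 to 3355 against 4322 to 6279, most of it CD68, with PTPRC at or under 3 counts in every library. CD3E had no count in EV and 78.7, 91.1 and 50.1 normalized counts in HDAC8 libraries. CD3E (DESeq2 adjusted p = 1.1e-06) and CD68 (log2 fold change 0.92, DESeq2 adjusted p = 3.13e-05) were called higher. They were 2 of the 3 immune genes with an adjusted p, beside 5.57% of all genes. Any part of these in the results on the members was not tested. In bulk RNA a change in every cell and a change in the share of cells that make a transcript cannot be told apart.

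To determine which subunits differed, HDAC8 was compared with EV by DESeq2 across all 26162 genes tested. A gene was called at an adjusted p under 0.05 with a log2 fold change at or beyond 0.58 in either direction. JUN, FOSB and FOSL1 were higher, ATF3 was lower, and JUNB, JUND, FOS, FOSL2, BATF3 and MAFF were not called. Of the 10 members 4 were called, where 11% of the 21021 genes with an adjusted p were. The 3 higher members stood against 5.57% of genes called higher, and the 1 lower member against 5.44% called lower. Among the 12014 genes with a mean in the members' range (68.2 to 4826 normalized counts) 14% were called. EV and HDAC8 libraries were free of overlap for 4 of the 10 members, as for 29% of all genes, or 34.2% of genes in that range. The median log2 fold change was 0.13 over the members and -0.003 over all genes. edgeR's quasi-likelihood test called 3 of the members (JUN, FOSL1 and ATF3) and 8.12% of the genes it tested.

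**Figure D1:**
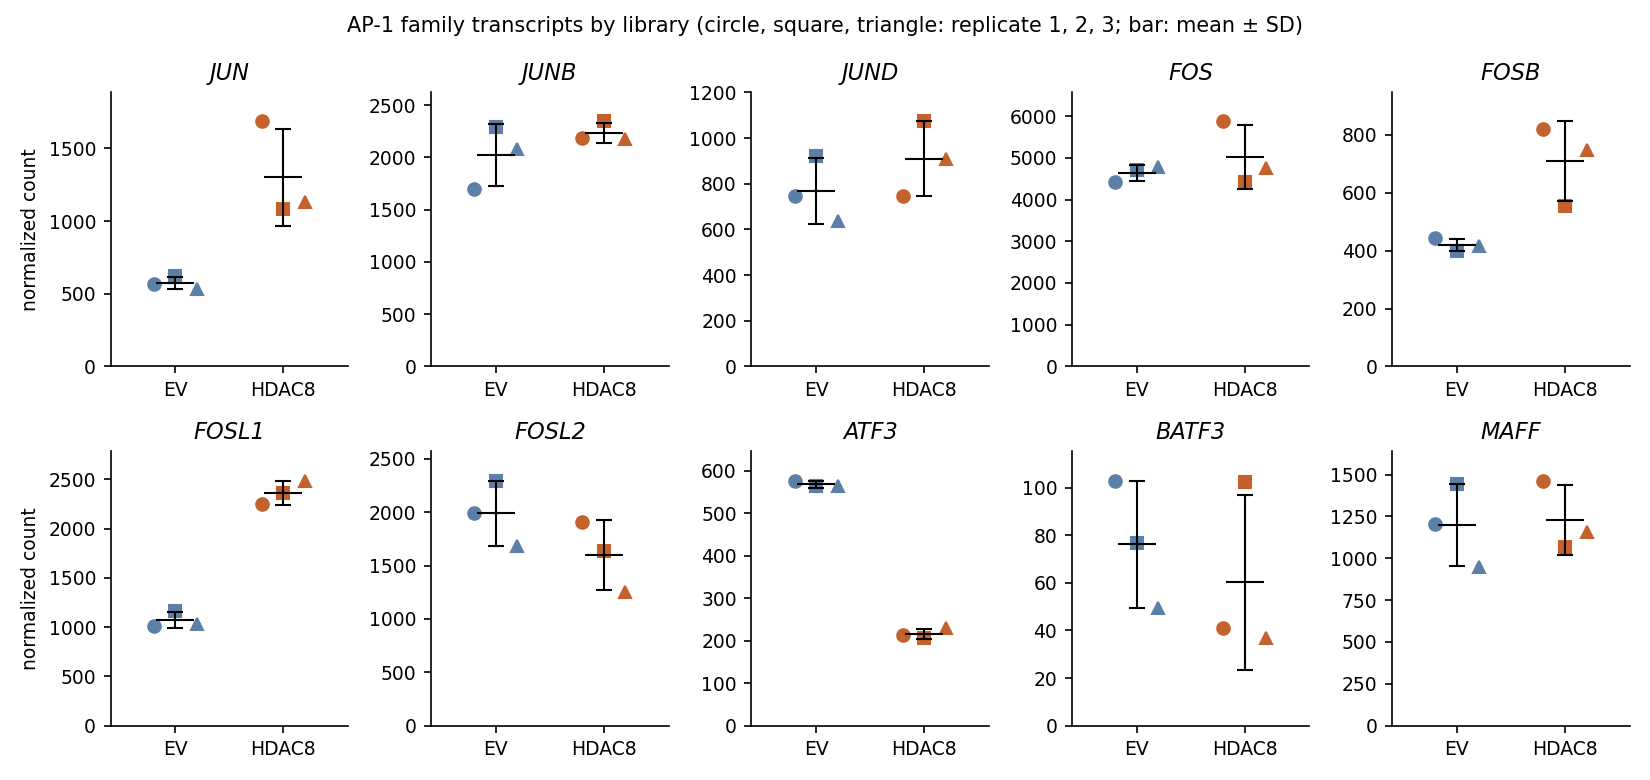
Normalized counts (y axis, from 0) of the 10 members in the 3 EV libraries (blue) and 3 HDAC8 libraries (orange), 1 panel a gene, where the circle, square and triangle are replicates 1, 2 and 3 and the bars give mean ± SD. The HDAC8 points lie apart from the EV points in JUN, FOSB, FOSL1 (above) and ATF3 (below), and HDAC8 1 is the highest library for JUN, FOS, FOSB and MAFF.

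JUN was the most raised member of its family. JUN (ENSG00000177606, GRCh38 chr1:58776845-58784048, minus strand) encodes c-Jun, the strongest activator among the JUN proteins and the main substrate of the JNK kinases, and its transcript has 1 exon. It had 570.4, 619.2 and 531.0 normalized counts in EV 1 to 3 and 1686, 1083 and 1134 in HDAC8 1 to 3. All HDAC8 libraries were above all EV libraries, with HDAC8 1 well above the other two. The means were 573.5 ± 44.2 and 1301 ± 335 (SD, n = 3). The DESeq2 estimate was 1.18 on the log2 scale (SE 0.25, adjusted p = 4.62e-05), or a fold change with a 95% interval of 1.62 to 3.17, and 90.2% of tested genes had a lower one. Without HDAC8 1 it was 0.95 (SE 0.23, DESeq2 adjusted p = 7.51e-04), so the gene was called with and without that library.

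JUNB and JUND, the other JUN proteins, did not pass the test. JUNB (ENSG00000171223, chr19:12791486-12793315, plus strand), a weaker activator that can hold back c-Jun, had 1701, 2291 and 2079 normalized counts in EV and 2183, 2345 and 2178 in HDAC8 libraries. The HDAC8 values lay within a narrower band and overlapped with EV. Its means were 2023 ± 299 and 2235 ± 95.2 (SD, n = 3), with a DESeq2 log2 fold change of 0.14 (SE 0.18, adjusted p = 0.74, 95% interval of the fold 0.867 to 1.41). JUND (ENSG00000130522, chr19:18279694-18281622, minus strand), which many cells make without stimulation, had 747.7, 920.9 and 637.4 against 748.2, 1073 and 910.4. The groups overlapped here as well. Its means were 768.6 ± 143 and 910.6 ± 163 (SD, n = 3), and the DESeq2 estimate was 0.24 on the log2 scale (SE 0.25, adjusted p = 0.661, interval of the fold 0.841 to 1.67). Both intervals ended under a 2-fold rise. Like JUN, both genes have a single exon. HOOK2 lies across JUNB on the opposite strand, shares 259 exon bases with it and was not called (log2 fold change 0.20, DESeq2 adjusted p = 0.83), and whether the counting used strand is not stated.

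FOSL1 was the most raised member of the FOS family. FOSL1 (ENSG00000175592, chr11:65892049-65900573, minus strand) encodes FRA-1, a FOS protein without the C-terminal activation domain of c-Fos whose protein is stabilised by ERK signalling. Its normalized counts were 1015, 1161 and 1032 in EV and 2245, 2361 and 2486 in HDAC8 libraries. The lowest HDAC8 library stood far above the highest EV library, and the libraries of each group lay close together. The means were 1069 ± 79.7 and 2364 ± 121 (SD, n = 3), with a DESeq2 log2 fold change of 1.14 (SE 0.17, adjusted p = 4.3e-09, interval of the fold 1.74 to 2.80). Without HDAC8 1 it was 1.18 (DESeq2 adjusted p = 9.53e-10). HDAC8 1 was thus the lowest HDAC8 library for FOSL1 and the highest for JUN.

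FOS, the most abundant member, was not called. FOS (ENSG00000170345, chr14:75278826-75282230, plus strand) encodes c-Fos, the classical partner of c-Jun. It had 4418, 4714 and 4775 normalized counts in EV and 5874, 4425 and 4751 in HDAC8 libraries. HDAC8 1 was above every other library, and HDAC8 2 and HDAC8 3 lay within the EV range. The means were 4635 ± 191 and 5017 ± 760 (SD, n = 3), with a DESeq2 log2 fold change of 0.11 (SE 0.16, adjusted p = 0.771, interval of the fold 0.877 to 1.34). Without HDAC8 1 the value turned to -0.017 (DESeq2 adjusted p = 0.968).

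FOSB passed the thresholds narrowly. FOSB (ENSG00000125740, chr19:45467995-45475179, plus strand) is an immediate-early relative of FOS. Its normalized counts were 443.6, 399.7 and 414.7 in EV and 821.7, 555.1 and 749.2 in HDAC8 libraries, so the groups did not overlap. The means were 419.3 ± 22.3 and 708.7 ± 138 (SD, n = 3), with a DESeq2 log2 fold change of 0.76 (SE 0.27, adjusted p = 0.0447, interval of the fold 1.17 to 2.45). The call was lost with edgeR (adjusted p = 0.0553), with limma-voom (adjusted p = 0.0866) and in 5 of the 6 DESeq2 fits that left out 1 library, EV 1 (DESeq2 adjusted p = 0.123), EV 2 (0.152), EV 3 (0.161), HDAC8 1 (0.133) or HDAC8 3 (0.19). FOSB lies within ERCC1 on the opposite strand, with 0 exon bases shared in the annotation, and ERCC1 was not called (log2 fold change 0.44, DESeq2 adjusted p = 0.127).

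FOSL2 stood apart from FOSL1 in having a lower mean in the HDAC8 libraries, without passing the test. FOSL2 (ENSG00000075426, chr2:28392448-28417317, plus strand) encodes FRA-2. The antisense gene FOSL2-AS1 lies across part of it with 0 exon bases shared in the annotation. It had 1990, 2296 and 1683 normalized counts in EV and 1909, 1639 and 1254 in HDAC8 libraries. Means were 1989 ± 307 and 1601 ± 329 (SD, n = 3) with overlapping groups, and the DESeq2 estimate was -0.31 on the log2 scale (SE 0.21, adjusted p = 0.41, interval of the fold 0.604 to 1.07).

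ATF3 was the one member that fell. ATF3 (ENSG00000162772, chr1:212565334-212620777, plus strand) encodes a stress-induced factor that pairs with JUN proteins or with itself. It had 576.7, 563.2 and 563.5 normalized counts in EV and 213.8, 206.9 and 229.8 in HDAC8 libraries. Every HDAC8 library was below every EV library, and the EV libraries were closer together than for any other member. The means were 567.8 ± 7.74 and 216.8 ± 11.7 (SD, n = 3). The DESeq2 estimate was -1.39 on the log2 scale (SE 0.29, adjusted p = 6.12e-05, interval of the fold 0.256 to 0.569), at the 7.98th percentile of tested genes. It was -1.38 without HDAC8 1 (DESeq2 adjusted p = 1.37e-04).

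BATF3 and MAFF did not pass the test. BATF3 (ENSG00000123685, chr1:212686417-212699840, minus strand), a JUN partner best known from dendritic cells, was the least abundant member, with 102.8, 76.6 and 49.3 normalized counts in EV and 41.0, 102.4 and 37.0 in HDAC8 libraries. The spread within each group was wide, with an SD of 35.1% of the mean in EV and 60.9% in HDAC8 libraries. The DESeq2 estimate was -0.34 on the log2 scale (SE 0.74, adjusted p = 0.88), and the interval of the fold, 0.290 to 2.15, included a 2-fold change in either direction. MAFF (ENSG00000185022, chr22:38200767-38216507, plus strand), a small MAF protein that pairs with CNC factors such as NFE2L2, had 1207, 1442 and 949.7 against 1464, 1065 and 1155. The groups overlapped, with the highest value in HDAC8 1 and the lowest in EV 3. Its DESeq2 estimate was 0.03 on the log2 scale (SE 0.23, adjusted p = 0.97, interval of the fold 0.747 to 1.40), and it turned to -0.113 (DESeq2 adjusted p = 0.855) without HDAC8 1 and to -0.115 (0.917) without EV 3. PLA2G6 runs across MAFF on the opposite strand and shares 326 exon bases with it, and PLA2G6 was not called (log2 fold change 0.36, DESeq2 adjusted p = 0.296).

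**Figure D2:**
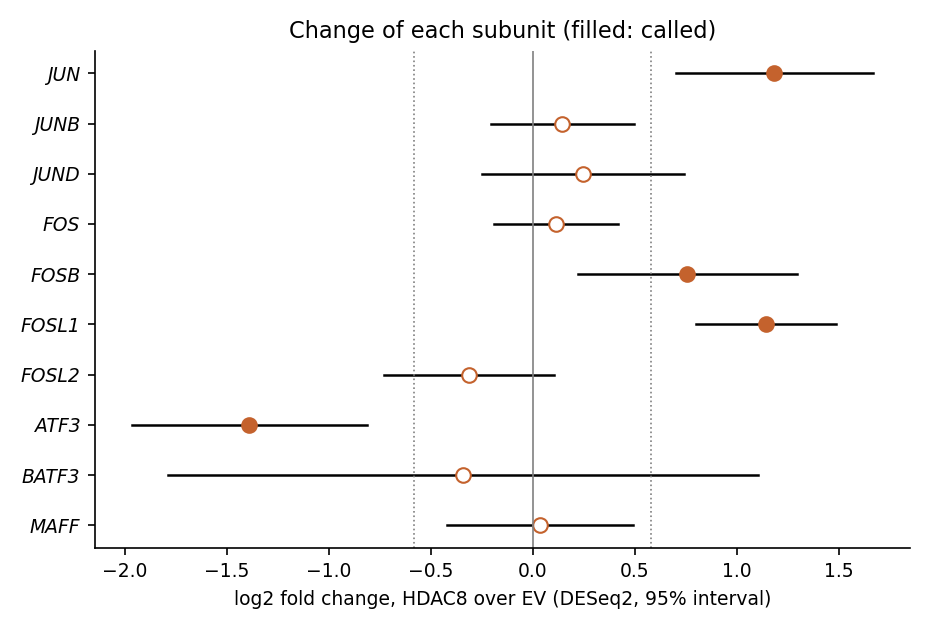
Log2 fold change of HDAC8 over EV (x axis) for each member with its 95% interval from DESeq2, where filled points were called and dotted lines mark a size of 0.58. The intervals of JUN (1.18), FOSL1 (1.14) and FOSB (0.76) lie above 0, that of ATF3 (-1.39) lies below 0, and the remaining 6 include 0.

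HDAC8 1 stood apart from the other HDAC8 libraries in several measures. It had the lowest mitochondrial share (4.46%) and the highest JUN, FOS, FOSB and MAFF. HSPA1A, a heat shock gene induced by cell stress, had 13687 normalized counts there against 9821 and 9897 in HDAC8 2 and 3 and 6593 to 7684 in EV. Other heat shock genes did not share this order. Among the HDAC8 libraries, HSPA1B was also highest in HDAC8 1 and DNAJB1 lay between. HSPA8, HSPH1, HSPB1, HSP90AA1 and BAG3 were lowest there. The 8 genes summed to 226632 in HDAC8 1 against 269630 and 259785 in HDAC8 2 and 3. Of 8 heat shock genes, 1 (HSPA1A, log2 fold change 0.66, DESeq2 adjusted p = 7.27e-04) was called higher and 0 lower, beside 5.57% and 5.44% of all genes. The median log2 fold change of the 8 was 0.29, and without HDAC8 1 0 were called. Without HDAC8 1, 3 members were called, JUN and FOSL1 higher and ATF3 lower. Leaving mitochondrially encoded genes out gave 1.18 for JUN again. That fit changes little but the scaling, so it cannot show whether the low mitochondrial share of HDAC8 1 bears on JUN.

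The order of the subunits' levels was compared next, as normalized counts per kb of annotated exon. In EV the order was FOS (1455 ± 59.9 per kb, SD, n = 3), JUNB (1106 ± 163), FOSL1 (567 ± 42.2), JUND (398 ± 74.1), FOSL2 (278 ± 42.8), MAFF (214 ± 43.9), JUN (158 ± 12.2), ATF3 (142 ± 1.94), FOSB (75.5 ± 4.01) and BATF3 (29.7 ± 10.4). Libraries of neighbours in that order overlapped for FOSL2 and MAFF and for MAFF and JUN, and for no other neighbours. In HDAC8 libraries FOS led again (1575 ± 239), followed by FOSL1 (1253 ± 64.0) and JUNB (1222 ± 52.0), which overlapped. Then came JUND (472 ± 84.3) and JUN (359 ± 92.4), also overlapping, FOSL2 (224 ± 46.0) and MAFF (219 ± 37.3), overlapping as well, FOSB (128 ± 24.8), ATF3 (54.2 ± 2.94) and BATF3 (23.4 ± 14.3). FOSL1 thus moved from far under JUNB to its level, and ATF3 went from above FOSB to under it. Length sets part of this order. Per kb of the canonical transcript, a choice made after the data were seen, MAFF ranked as number 4 in both groups (505.3 and 517.3 per kb), and ATF3 (292.7) stood above JUN (176.1) in EV.

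The make-up of each family was then described by the share of a subunit in its family's counts per kb within a library, which does not depend on scaling between libraries. JUN made up 10.7%, 8.99% and 9.08% of the JUN family in EV and 22.7%, 14.0% and 15.8% in HDAC8 libraries, a mean 7.94 percentage points higher. JUNB made up 63.0%, 65.9% and 70.4% against 58.3%, 60.0% and 60.3%, and JUND 26.3%, 25.1% and 20.5% against 19.0%, 26.0% and 23.9%. The groups did not overlap for JUN and JUNB, overlapped for JUND, and JUNB remained the largest part of the family in all 6 libraries. In the FOS family, FOSL1 made up 23.6%, 24.7% and 23.2% in EV and 34.5%, 42.1% and 42.2% in HDAC8 libraries, 15.8 points higher. FOS went from 60.8%, 59.5% and 63.6% to 53.5%, 46.8% and 47.8%, and FOSL2 from 12.2%, 12.9% and 9.97% to 7.73%, 7.71% and 5.62%, both without overlap. FOSB was a small part throughout, at 2.89% to 3.50% against 3.37% to 4.33%. The counts of FOS and FOSL2 themselves did not pass the test, and the shares in a library sum to the whole. The summed JUN family level was 1662 ± 217 per kb in EV and 2053 ± 81.1 in HDAC8 libraries, and that of the FOS family 2375 ± 104 and 3178 ± 245 (SD, n = 3), ratios of 1.23 and 1.34. These shares and sums are descriptions with no test.

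**Figure D3:**
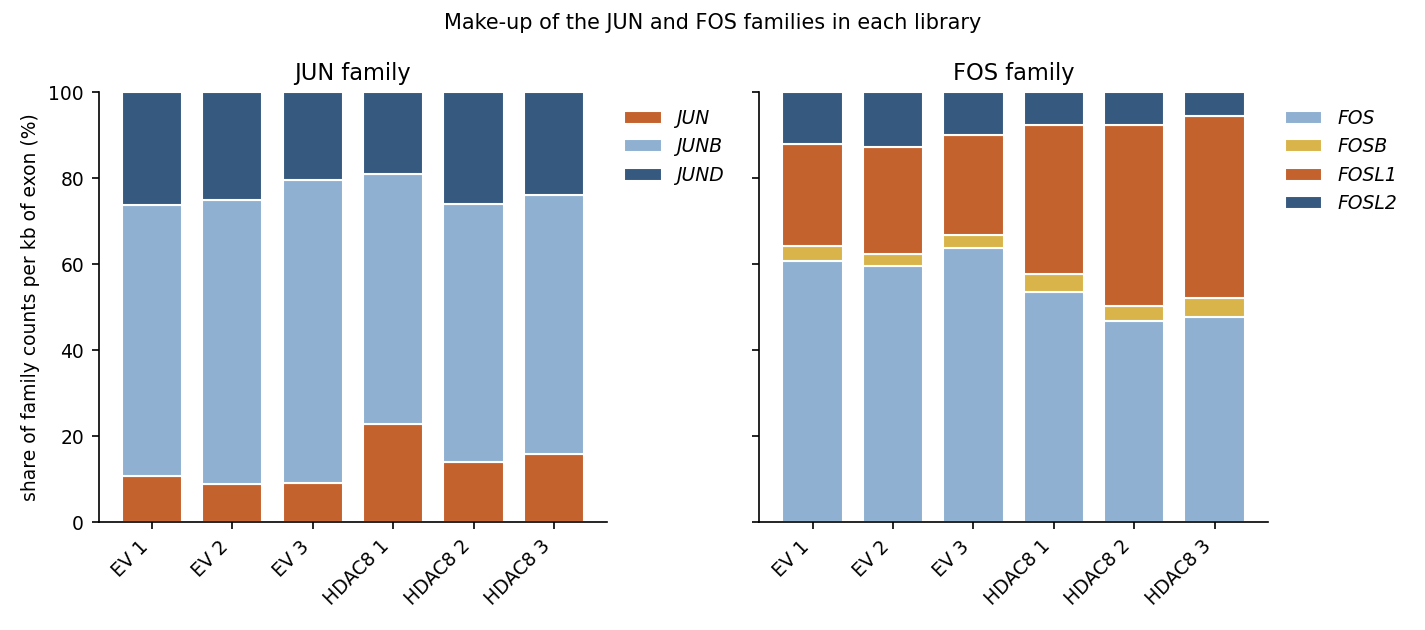
Share of each subunit in the counts per kb of exon of its family (y axis, percent) in each of the 6 libraries, as stacked bars for the JUN family (left) and the FOS family (right). JUN widens from 8.99% to 10.7% in EV to 14.0% to 22.7% in HDAC8 libraries, and FOSL1 from 23.2% to 24.7% to 34.5% to 42.2%.

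Ratios of 2 genes in the same library, 5 between members and 1 of MAFF to the related gene MAFG, which is no member, addressed whether their changes differed from each other. The test was an exact two-sided permutation test over the 6 libraries (20 arrangements), which cannot give a p under 0.1, so no ratio could pass 0.05. FOSL1 to FOSL2 was 1.94, 1.92 and 2.33 in EV and 4.46, 5.47 and 7.52 in HDAC8 libraries, 2.77-fold higher on the log2 mean (exact permutation p = 0.1, adjusted over 6 ratios 0.15). JUN to JUND was 0.406, 0.358 and 0.443 against 1.2, 0.537 and 0.663, 1.88-fold higher (exact permutation p = 0.1, adjusted 0.15), and HDAC8 1 was the one library with more JUN than JUND per kb. Its log2 difference was 0.91 with all libraries and 0.573 without HDAC8 1. Both ratios were higher in every HDAC8 library than in any EV library. FOSB to FOS was 0.0576, 0.0487 and 0.0498 against 0.0803, 0.0720 and 0.0905, again without overlap and 1.55-fold higher (exact permutation p = 0.1, adjusted 0.15). MAFF to MAFG, the ratio of a pair of small MAF genes, was 0.357, 0.365 and 0.337 against 0.436, 0.503 and 0.489, 1.35-fold higher (exact permutation p = 0.1, adjusted 0.15). MAFG itself had a lower mean in the HDAC8 libraries and was not called (log2 fold change -0.37, DESeq2 adjusted p = 0.27), and it shares 105 exon bases with SIRT7. FOS to FOSL2 overlapped between the groups (1.34-fold, exact permutation p = 0.2, adjusted 0.24), as did JUNB to JUND (log2 difference -0.09, exact permutation p = 0.6), which turned to 0.06 without EV 3.

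**Figure D4:**
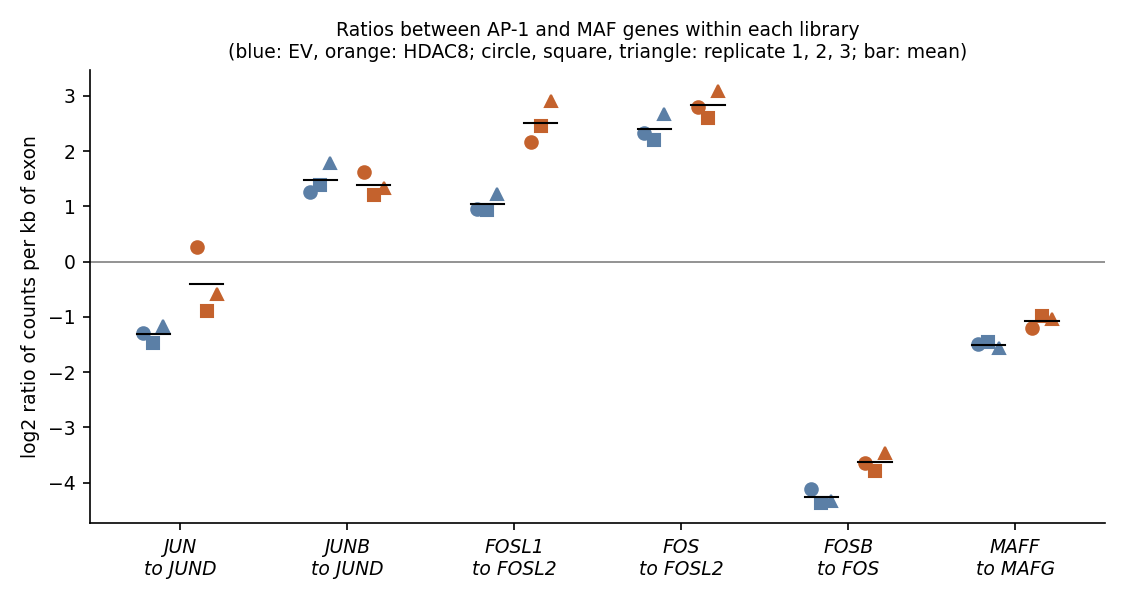
Log2 ratio of counts per kb of exon between 2 members, or MAFF and MAFG (y axis), in each EV (blue) and HDAC8 (orange) library, where circle, square and triangle are replicates 1, 2 and 3 and the bar is the mean. The groups lie apart for JUN to JUND, FOSL1 to FOSL2, FOSB to FOS and MAFF to MAFG, and the widest gap in means is 1.47 for FOSL1 to FOSL2.

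Genes whose pattern over the 6 libraries was closest to that of JUN and FOSL1 were named by Pearson's r of log2(normalized count + 1), among 14450 genes with a mean of at least 50. For JUN these were MIR9-3HG, a long noncoding RNA host gene (r = 0.998), MAGEA1, a cancer-testis antigen of a family whose members share reads (r = 0.998), and APC2 (r = 0.996). MIR9-3HG had 74.5, 85.0 and 58.1 normalized counts in EV and 575.5, 263.2 and 301.6 in HDAC8 libraries, with HDAC8 1 highest as for JUN. For FOSL1 they were GAS7 (r = 0.9995), the ETS factor ELF4 (r = 0.999) and the potassium channel subunit KCNAB2 (r = 0.999). GAS7 had 10261, 11445 and 10419 against 20706, 22476 and 22881. All 6 genes were called higher. Such r values rest on 6 points in 2 groups, so any gene with a clean difference between the groups scores high.

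Other bZIP factors, which pair with AP-1 subunits or read related sites, were counted for comparison. Of 30, 28 had an adjusted p, and 3 were called higher and 6 lower (median log2 fold change -0.25). Of all genes, 5.57% were called higher and 5.44% lower. JDP2, a repressor that pairs with c-Jun, had 986.7, 991.8 and 897.5 normalized counts in EV and 325.8, 354.4 and 321.2 in HDAC8 libraries, a log2 fold change of -1.52 (DESeq2 adjusted p = 1.74e-08). It fell with ATF3, the other factor often described as a repressor at AP-1 sites, and the drop was present in every library. CEBPB (-1.21, DESeq2 adjusted p = 1.2e-04), CREB5 (-1.09, 7.27e-08) and the stress factor DDIT3, or CHOP (-0.94, 6.15e-05), fell as well, as did ATF4 (-0.73) and MAF (-0.77), which are named to complete the count. DDIT3 and ATF4, like ATF3, belong to the integrated stress response, which was not tested as a whole. ATF5 (-0.25, DESeq2 adjusted p = 0.737), CEBPG (-0.30, 0.401) and, outside this list, PPP1R15A (0.14, 0.759) were not called. The higher bZIP factors were CEBPD (1.16, DESeq2 adjusted p = 0.027), CREB3L2 (1.13, 8.3e-14) and the small MAF gene MAFK (0.90, 0.0188). Without HDAC8 1, 2 were higher and 7 lower and the median was -0.07, and the higher calls came to 1 without EV 1 (5 lower) and to 1 under the replicate block (7 lower). Across the fits that left out 1 library, 1 to 2 were higher and 5 to 8 lower, so at least 1 of the 3 higher calls was lost in each.

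Kinases and factors that act on JUN and FOS were counted next. Of 25 genes, among them the JNK, ERK and p38 kinases, SRF and the ELK factors, 24 had an adjusted p and 2 were higher and 0 lower, beside 11% of all genes called (median log2 fold change 0.005). Those were MAP3K1, a kinase upstream of JNK, with 4381, 4295 and 5022 normalized counts in EV and 6470, 7402 and 7197 in HDAC8 libraries (log2 fold change 0.62, DESeq2 adjusted p = 2.55e-04), and MAPK7, or ERK5 (0.77, 0.0114). MAPK8, which encodes JNK1, was not called (-0.10, DESeq2 adjusted p = 0.92). Transcript levels say nothing of the activity of these kinases. The count rested on single libraries, with 0 higher and 0 lower without EV 2, 1 higher without EV 3 or HDAC8 3, 1 higher under the replicate block, and 3 higher and 1 lower without HDAC8 1.

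Immediate-early genes other than the members did not move in a single direction. Of 29, 28 had an adjusted p, and 3 were called higher and 4 lower (median 0.14), beside 5.57% and 5.44% of all genes. The higher ones were CCN2 and CCN1, secreted matrix proteins also known as YAP targets, and the phosphatase gene DUSP2. CCN2 had 200.3, 294.2 and 256.1 normalized counts in EV and 3523, 3817 and 3802 in HDAC8 libraries (log2 fold change 3.89, DESeq2 adjusted p = 2.06e-86). CCN1 was higher by 2.14 (DESeq2 adjusted p = 2.03e-06) and DUSP2 by 3.69 (7.53e-05) on the log2 scale. DUSP2 had few counts in EV (7.34, 7.47 and 11.8 normalized counts, against 168, 109 and 65.3), so the size of its change is uncertain. NR4A3 (-1.23, DESeq2 adjusted p = 0.00586), BTG2 (-1.18, 0.00562), EGR3 (-0.91, 1.6e-07) and KLF6 (-0.71, 6.04e-04) fell. EGR1, induced through the same serum response as FOS, had 9671, 11631 and 10160 against 8507, 9274 and 10062 and, like FOS, was not called (-0.18, DESeq2 adjusted p = 0.506). Without HDAC8 1, 4 were higher and 3 lower, and without EV 1, 3 were higher and 2 lower.

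Genes known as AP-1 targets from general knowledge were counted last. Of 40, 29 had an adjusted p and 7 had no count in any library. Called higher were 12 and lower 3, with a median log2 fold change of 0.62. Across all genes, 5.57% were called higher and 5.44% lower, but this list was chosen with earlier results of these data known. The higher ones included growth factor ligands and receptors and genes of the matrix and its proteolysis. AREG, an EGFR ligand, had 83.9, 108.3 and 145.8 normalized counts in EV and 1997, 2266 and 2077 in HDAC8 libraries (log2 fold change 4.23, DESeq2 adjusted p = 2.88e-64). Among receptor genes, EGFR (2.78) and AXL (2.42) were higher as well. SPP1, or osteopontin, had 1203, 1635 and 1328 in EV and 145.4, 221.2 and 178.6 in HDAC8 libraries (-2.94, DESeq2 adjusted p = 1e-26), and HMOX1 (-2.14, 8.72e-21) and MT2A (-0.60, 0.00113), genes of oxidative and metal stress, were the other 2 that fell. Several of these genes also answer to other factors, and whether AP-1 acted on any of them was not measured. Without HDAC8 1, 13 were higher and 2 lower.

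**Figure D5:**
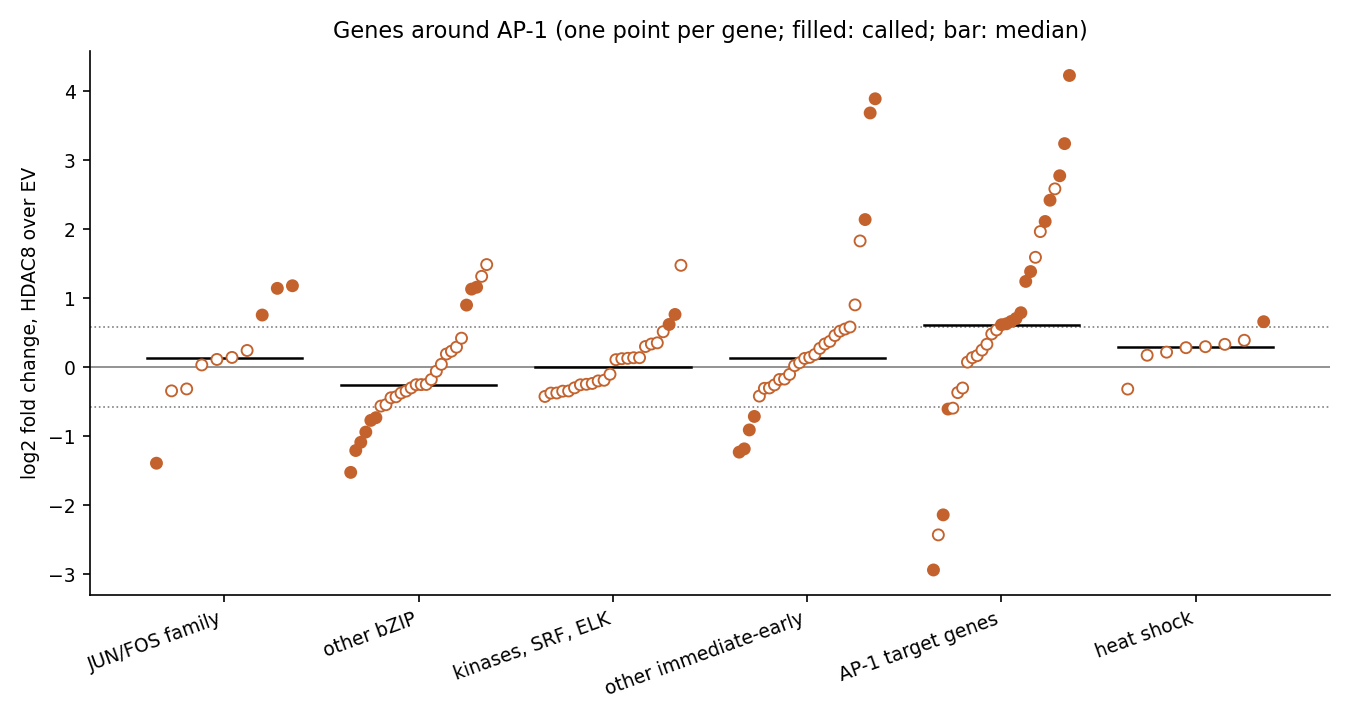
Log2 fold change of HDAC8 over EV (y axis) for every gene with an adjusted p in the members and in 5 lists around AP-1, 1 point a gene in rank order, where filled points were called, bars are medians and dotted lines mark a size of 0.58. Medians are 0.13 for the members, -0.25 for other bZIP factors, 0.005 for kinases, SRF and ELK factors, 0.14 for other immediate-early genes, 0.62 for AP-1 target genes and 0.29 for heat shock genes.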

How the data were processed

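RNA-seq of 6 WM164 libraries (3 EV, 3 HDAC8, grouped by the labels) was analysed. The authors used Trimmomatic for trimming, STAR for alignment and RSEM to estimate reads per gene, and the deposited values are expected counts, not scaled between libraries. Genome build, annotation and use of strand were not given in the sources used here. RSEM divides reads shared by similar genes, so such genes are less certain.

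Expected counts were rounded to whole numbers and compared in DESeq2 1.42.0 (R 4.3.3) by its Wald test, two-sided and without covariates, over all genes with a total of at least 10 counts. Genes were called at a Benjamini-Hochberg adjusted p under 0.05 and a log2 fold change at or beyond 0.58 in either direction, as in the methods of the study. The fit was checked on simulated data. Positions and exon lengths came from GENCODE release 44 (GRCh38), and levels per kb used the union of exons. Ratios were tested with SciPy 1.17.1. A count of 0 allows up to 3 counts, a floor of 2.57 to 3.27 normalized counts that covers counting error only. Each library counted as 1 replicate. Counts of libraries in a group differed beyond sampling noise (chi-square per degree of freedom 26.0 to 153), which does not show that they came from separate cultures.

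Members and lists were chosen with earlier results of these data known. Of each list of other bZIP factors, kinases, immediate-early genes, targets and heat shock genes, up to 4 called genes with the largest rise and 4 with the largest fall and a mean of at least 50 normalized counts were named, with the 3 genes closest in pattern to JUN and to FOSL1. A target gene that this rule names is not reported here. Other genes named are examples chosen after their values were seen. Alternatives were edgeR 4.0.16 (quasi-likelihood) and limma 3.58.1 (voom) with TMM scaling, DESeq2 scaled by total counts or by upper quartiles, other count filters, a replicate block, a fit without mitochondrially encoded genes and each library left out in turn.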

Additional observations from a re-analysis of the deposited data

How the results depend on the processing

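For the members' log2 fold changes, 129 of 140 values from alternative settings kept direction and side of the threshold. A member not called counts as kept if it stays uncalled with its sign. BATF3 thus kept all 14 while ranging from -0.96 to -0.07. Of the called members, JUN, FOSL1 and ATF3 kept 14 of 14 and FOSB kept 6. Some settings, such as the fit without mitochondrially encoded genes, barely differ from the main fit. FOSB lost its call in 8, with 0.754 under edgeR and 0.742 under limma-voom, and between 0.635 and 0.911 (DESeq2 adjusted p = 0.0173 to 0.19) across fits that left out 1 library. The 3 that turned direction were not called in any fit: FOS ranged from -0.017 to 0.201 and MAFF from -0.115 to 0.186 across fits that left out 1 library, with -0.115 without EV 3 and -0.113 without HDAC8 1 for MAFF. On the same leave-one-out fits JUN ranged from 0.948 to 1.30, FOSL1 from 1.11 to 1.21 and ATF3 from -1.43 to -1.35. The JUNB to JUND ratio ranged from -0.209 to 0.060. Shares not divided by length, HDAC8 minus EV, were 12.0 points for JUN, -9.73 for JUNB, -5.58 for FOS, 2.1 for FOSB, 11.5 for FOSL1 and -7.98 for FOSL2, and canonical transcript lengths, added after the data were seen, moved none beyond 1 SD. Fits that left out 1 library called 1653 to 2485 genes, with 44.5% (without HDAC8 1) to 57.5% (without EV 2) of them higher, and 3 to 4 members.

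Replicate numbers showed no clear pairing of the libraries. Deviations from the group means had r of -0.0273, -0.0668 and 0.0397 between libraries of the same number. Between libraries of different numbers r ran from -0.111 to 0.151. With 3 libraries in a group, these values cannot exclude a weak pairing. Under the replicate block 2153 genes and 3 members were called, and FOSB (0.739, DESeq2 adjusted p = 0.109) was not. Genes with few reads limit what can be seen, as for BATF3, whose leave-one-out range was -0.96 to -0.07. The cause of these shifts was not tested.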
